A study of Homo sapiens with 12 samples.

Results

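The E2F transcription factors and the pocket proteins that hold them in check were followed through 10 genes, E2F1, E2F2, E2F3, E2F4, E2F5, E2F6, E2F8, RBL1, RBL2 and TFDP1. They were picked by gene symbol, with earlier results of these data known. These are 10 of the 16383 genes in the deposited table. All 10 were among the 11242 genes that averaged 10 normalized counts or more over the 12 libraries and were tested, although E2F2 and E2F8 would not have reached that level on their palbociclib libraries alone. Of the rest of the family, E2F7 was not analysed here, and TFDP3 was listed at 0 in every library.

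The cells were IMR90, an established line of genetically unmodified human lung fibroblasts, and poly(A) RNA was sequenced from 4 groups of 3 libraries. The proliferating group had received no treatment. The other groups had received 20 Gy of ionizing radiation over 10 min, which makes these cells senescent, and were collected on day 11 after irradiation. One of them had DMSO, the solvent control, and the labels give no days for it. The others were given, on days 4, 6, 8 and 10, either 2 µM palbociclib, a blocker of CDK4 and CDK6 (kinases that switch pocket proteins off), or 2 µM ruxolitinib, a blocker of the Janus kinases of cytokine receptors. Proliferating cells were neither irradiated nor given DMSO, so radiation, solvent and days in culture cannot be told apart in that comparison.

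E2F factors bind the promoters of genes needed for S phase and mitosis, mostly as pairs with a DP partner such as TFDP1. The pocket proteins RB1, RBL1 (p107) and RBL2 (p130) bind E2F factors and turn those promoters off, until cyclin-dependent kinases phosphorylate the pocket and release it. In quiescent cells RBL2 works with E2F4 or E2F5 in a repressor complex named DREAM, and in fibroblasts such repression accompanies lasting exit from the cell cycle. E2F1, E2F2 and RBL1 are themselves textbook E2F targets.

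Recovered reads per library ranged from 14106799 to 21762412. All 10 fibroblast markers were found, and their sum differed between groups. It was 822420 to 854897 normalized counts per proliferating library, 408919 to 419590 with DMSO, 651681 to 683887 with palbociclib and 515852 to 520021 with ruxolitinib. COL1A1, COL1A2 and VIM made up 88.7% to 90.5% of that sum. Taken singly, 8 of the 10 fibroblast markers fell with DMSO against proliferating cells, while THY1 and DCN rose. With palbociclib against DMSO 8 rose and 1 fell. Markers of other cell types were low and also differed between groups. Leukocyte markers summed to 1.11 to 7.26 in proliferating libraries, 28.4 to 39.6 with DMSO, 12.4 to 19.9 with palbociclib and 13.5 to 24.7 with ruxolitinib, with the leukocyte gene AIF1 at 0 throughout. Endothelial markers summed to 5.55 to 8.57 in proliferating libraries, 21.3 to 40.5 with DMSO, 21.0 to 33.9 with palbociclib and 28.0 to 50.4 with ruxolitinib. Epithelial markers summed to between 9.52 and 43.2 in all groups. The part of these markers in the results below was not tested. With proliferating cells set to 100%, the deposited values summed to 85.3% with DMSO, 99.8% with palbociclib and 86.8% with ruxolitinib, so the choice of scale matters to small differences. Library A126 of the proliferating group and library A120 of the palbociclib group lay farther from their own group than the other libraries did, and results were also computed without both. Columns carried a library number but no replicate number, so libraries are named by that number. Nothing in the labels says that replicates came from separate cultures, so the p-values measure the spread between these libraries, which may be technical.

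The activators E2F1 and E2F2, the repressor E2F8 and the pocket protein RBL1 fell most in senescent cells and fell further with palbociclib. E2F1 is an activator of S-phase genes. Its normalized counts were 928, 1099 and 961 in proliferating libraries A125, A126 and A127, and 293, 271 and 266 with DMSO (A116, A117 and A118). They were 183, 210 and 208 with palbociclib (A119, A120 and A121), and 251, 253 and 239 with ruxolitinib (A122, A123 and A124). The proliferating libraries were far above all senescent ones, and the 3 palbociclib libraries were below every DMSO and ruxolitinib library. E2F1 fell by 1.84 on the log2 scale with irradiation and DMSO against proliferating cells, a level 3.58-fold lower (SE 0.09, limma adjusted p = 2.71e-11). With palbociclib it fell by another 0.47 against DMSO (SE 0.09, adjusted p = 0.000392). In bulk RNA, fewer cells that express a gene and less of its RNA per cell cannot be told apart.

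E2F2, another activator, was at 119, 119 and 124 normalized counts in proliferating cells and at 16.8, 14.2 and 20.8 with DMSO. With palbociclib it was at 1.11, 3.28 and 1.78, which rest on 1, 3 and 2 reads. With ruxolitinib it was at 24.7, 25.2 and 13.5. The ruxolitinib libraries lay on both sides of the DMSO libraries, while every palbociclib library was below both groups. E2F2 fell by 2.75 on the log2(value + 1) scale with DMSO against proliferating cells (SE 0.32, limma adjusted p = 1.12e-06) and by 2.63 with palbociclib against DMSO (SE 0.32, adjusted p = 7.79e-06). Because adding 1 compresses such low values, the reads were also compared directly. There were 47 in the DMSO group and 6 in the palbociclib group, a scaled ratio of 8.48 (95% interval 3.62 to 24.3, counting error only).

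E2F8 is an E2F factor that needs no DP partner and represses E2F targets late in the cell cycle. It was measured at 306, 236 and 304 normalized counts in proliferating cells and at 28.7, 36.7 and 18.5 with DMSO. With palbociclib it was at 1.11, 2.19 and 0, or 3 reads in 3 libraries. With ruxolitinib it was at 18.5, 19.8 and 18.9. E2F8 and E2F2 thus had the lowest levels of all members under palbociclib, and a library of that group held no read of E2F8. E2F8 fell by 3.33 on the log2(value + 1) scale with DMSO against proliferating cells (SE 0.36, limma adjusted p = 5.44e-07) and by 3.89 with palbociclib against DMSO (SE 0.36, adjusted p = 4.66e-07). In reads, the DMSO to palbociclib ratio was 27.4 (76 reads against 3, 95% interval 9.03 to 136). The proliferating to palbociclib ratio was 278 (827 reads against 3, 95% interval 94.9 to 1352). Both intervals cover counting error only.

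RBL1, the pocket protein p107, was at 1072, 861 and 1139 normalized counts in proliferating cells. It was at 220, 200 and 235 with DMSO, at 108, 105 and 105 with palbociclib, and at 183, 184 and 180 with ruxolitinib. No group overlapped another, and library A126 was the lowest of the proliferating group. RBL1 fell by 2.22 on the log2 scale with DMSO against proliferating cells (SE 0.10, limma adjusted p = 2.18e-11), which is a level 4.65-fold lower. Palbociclib lowered it by another 1.03 against DMSO (SE 0.10, adjusted p = 9.23e-07). The ruxolitinib difference from DMSO was -0.25 (SE 0.10, adjusted p = 0.214) and was not called, although its libraries were all below the DMSO libraries.

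**Figure D1:**
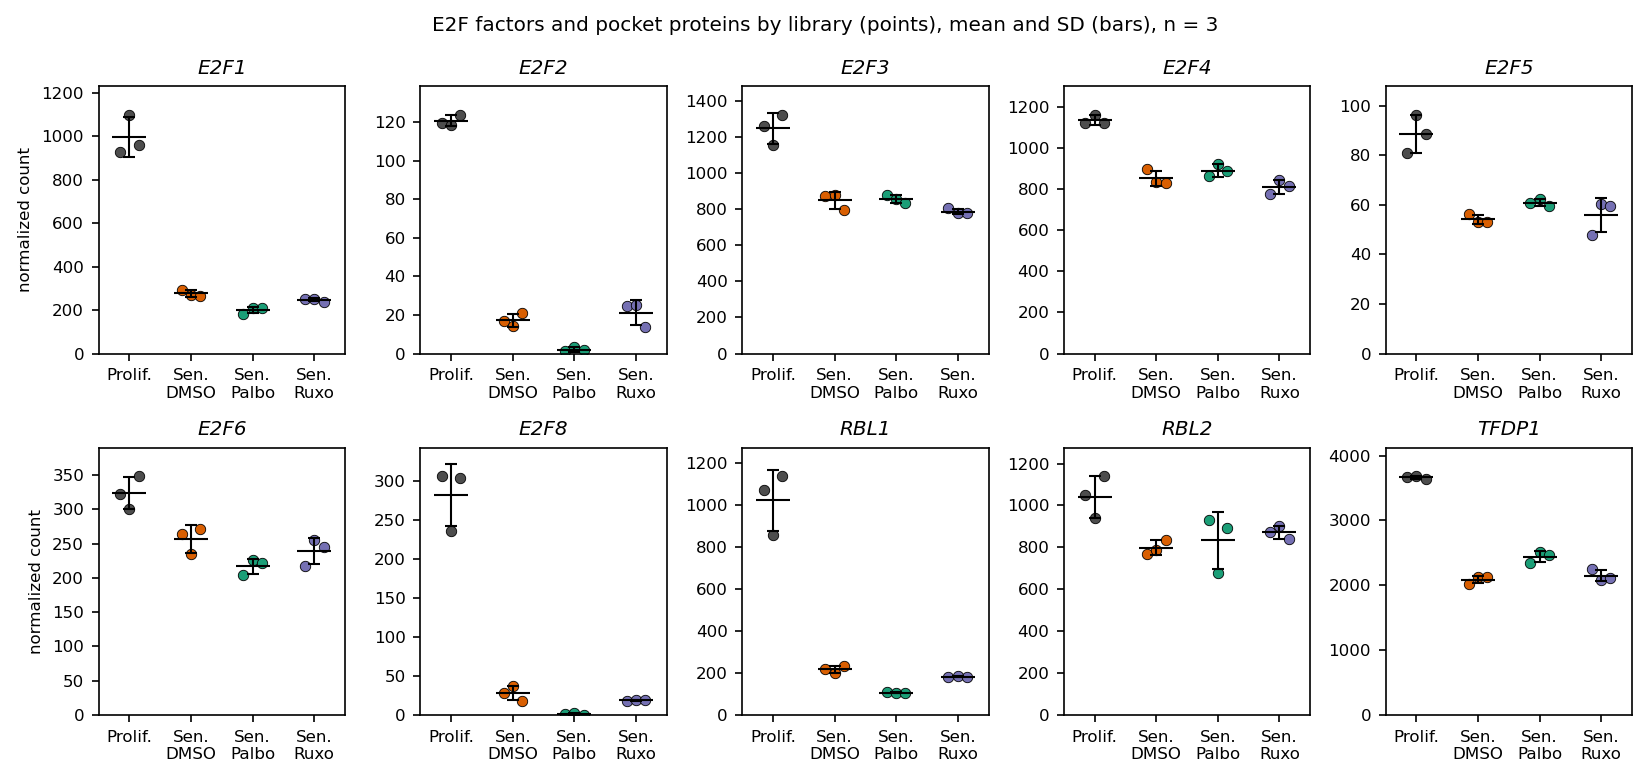
Normalized counts of the 10 members in each library (points) with the group mean and SD (bars, n = 3) for proliferating (Prolif.), senescent DMSO, senescent palbociclib (Palbo) and senescent ruxolitinib (Ruxo) cells. Each panel has its own linear axis from 0. The proliferating libraries are highest in all 10 panels, and E2F2 (1.11 to 3.28) and E2F8 (0 to 2.19) lie near 0 with palbociclib.

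The promoters of these members are shown because the members that fell together and those that moved little can be set beside each other at sequence level. RefSeq promoters on GRCh38.p14 were found for 8 of the 10 members, and not for E2F5 and E2F8. The 250 bases before the start were searched on both strands for the E2F sites TTTCGCGC, TTTGGCGC and TTTCCCGC, and for TTTGAA and TTCGAA, the CHR element of G2/M genes. The lines below give the 120 bases before the start in the gene's direction, with matches in capitals and no overlap between matches.
E2F1: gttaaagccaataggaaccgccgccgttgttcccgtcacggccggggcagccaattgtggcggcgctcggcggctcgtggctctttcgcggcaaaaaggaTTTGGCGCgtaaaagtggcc
E2F2: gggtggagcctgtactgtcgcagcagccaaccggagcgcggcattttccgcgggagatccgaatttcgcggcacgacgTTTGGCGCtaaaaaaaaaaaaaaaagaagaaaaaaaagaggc
RBL1: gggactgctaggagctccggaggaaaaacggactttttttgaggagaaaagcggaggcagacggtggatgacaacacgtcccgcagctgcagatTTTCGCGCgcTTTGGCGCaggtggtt
E2F3: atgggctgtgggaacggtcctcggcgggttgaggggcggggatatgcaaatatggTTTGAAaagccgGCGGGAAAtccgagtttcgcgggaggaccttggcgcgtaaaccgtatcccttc
E2F4: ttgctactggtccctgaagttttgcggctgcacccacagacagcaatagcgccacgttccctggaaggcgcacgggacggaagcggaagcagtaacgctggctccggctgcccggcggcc

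In GENCODE v44 on GRCh38 the genes themselves lie at chr20:33675477-33686385 (E2F1), chr1:23506438-23531233 (E2F2), chr6:20401879-20493714 (E2F3), chr16:67192155-67198918 (E2F4) and chr8:85177154-85217158 (E2F5). E2F6 lies at chr2:11444375-11466177, E2F8 at chr11:19224063-19241620, RBL1 at chr20:36996349-37095997, RBL2 at chr16:53433977-53491648 and TFDP1 at chr13:113584721-113641473. The promoter windows printed are chr20:33686386-33686505 on the minus strand for E2F1, chr1:23531234-23531353 on the minus strand for E2F2 and chr20:37095998-37096117 on the minus strand for RBL1. E2F3 is at chr6:20401759-20401878 and E2F4 at chr16:67192035-67192154, both on the plus strand. E2F1 held TTTGGCGC at bases 20 to 13 before the start, and E2F2 held the same letters at bases 42 to 35. RBL1 held 2 sites, TTTCGCGC at bases 26 to 19 and TTTGGCGC at bases 16 to 9. E2F3 held TTTCCCGC on the opposite strand at bases 53 to 46 and the CHR letters TTTGAA at bases 65 to 60. TFDP1, whose window is not printed, held TTTCGCGC on the opposite strand at bases 120 to 113. No match was found in the windows of E2F4, E2F6 and RBL2. The last 120 bases of the RBL2 window, chr16:53434351-53434470, lie inside its GENCODE gene, because the RefSeq start is downstream of the GENCODE start. Bases before the GENCODE start of RBL2 were not searched. The windows of E2F6 and TFDP1 overlap their GENCODE genes in part. At least 1 E2F site was thus present in 5 of 8 members, against 2.32% of all 35116 promoters in the table and 2.94% of the 22198 that belong to protein-coding genes. The members' 250 bases held from 55.2% (RBL2) to 78.4% (TFDP1) G and C, and these shares were not matched for that. The members were also picked as E2F and pocket genes, some of them textbook E2F targets, so the contrast is a description only. A CHR match was present in 1 of 8, against 14.3% of all promoters. Of the members with a promoter that fell in senescent cells and again with palbociclib, E2F1, E2F2 and RBL1 each held an E2F site and E2F6 held none. E2F3 and TFDP1 also held a site and were not called lower with palbociclib on the deposited scale. Which members were called lower depended on the setting. The call of E2F6 (limma adjusted p = 0.0467) was lost in several settings. At the same total E2F3 (-0.22, adjusted p = 0.00757) and E2F4 (-0.16, adjusted p = 0.0305), the latter with no match, were called lower. Whether the sites go with the falls was not tested.

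E2F3, E2F4, E2F5, E2F6, RBL2 and TFDP1 moved less than these 4. E2F3, which is made as an activator and as a shorter form that these gene counts do not separate, was at 1264, 1157 and 1325 normalized counts in proliferating cells. With DMSO it was at 876, 878 and 797, with palbociclib at 879, 856 and 833, and with ruxolitinib at 806, 777 and 779. The palbociclib and ruxolitinib libraries each overlapped the DMSO libraries, and all senescent libraries were below the proliferating ones. E2F3 fell by 0.55 on the log2 scale with DMSO against proliferating cells (SE 0.06, limma adjusted p = 1.05e-06). Its palbociclib difference from DMSO was 0.01, with a 95% interval of -0.12 to 0.14.

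E2F4, the main repressor E2F of non-dividing cells, was at 1121, 1161 and 1123 normalized counts in proliferating cells and at 895, 835 and 827 with DMSO. It was at 861, 921 and 886 with palbociclib and at 776, 842 and 813 with ruxolitinib. The palbociclib and ruxolitinib libraries both overlapped the DMSO libraries. E2F4 fell by 0.41 on the log2 scale with DMSO against proliferating cells (SE 0.06, limma adjusted p = 8.77e-06). Palbociclib against DMSO gave a difference of 0.06 (95% interval -0.06 to 0.18).

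E2F5, the close relative of E2F4, was at 80.9, 96.5 and 88.6 normalized counts in proliferating cells and at 56.4, 53.3 and 53.2 with DMSO. It was at 60.9, 62.4 and 59.5 with palbociclib and at 47.8, 60.3 and 59.6 with ruxolitinib. The palbociclib libraries were all above the DMSO libraries, but the difference of 0.16 (95% interval -0.14 to 0.47, limma adjusted p = 0.359) was not called. E2F5 fell by 0.69 with DMSO against proliferating cells (SE 0.14, adjusted p = 0.000405). In GENCODE v44, 16.6% of the exon bases of E2F5 lie opposite exons of RBIS, and whether the counting used strand is not given in the sources used here, so reads of the pair cannot be separated.

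E2F6 lacks the pocket-binding region and represses as part of a Polycomb complex. It was at 323, 301 and 349 normalized counts in proliferating cells, at 264, 234 and 272 with DMSO, at 205, 226 and 221 with palbociclib and at 218, 255 and 245 with ruxolitinib. Each palbociclib library was below each DMSO library, and the ruxolitinib libraries overlapped both. E2F6 fell by 0.33 on the log2 scale with DMSO against proliferating cells (SE 0.09, limma adjusted p = 0.00478) and by 0.24 with palbociclib against DMSO (SE 0.09, adjusted p = 0.0467). The palbociclib call was lost on leaving out any of libraries A116, A118, A119, A121, A123, A124 or A125, with no filter on low values, in a fit of only the 2 groups and under quantile normalization, and adjusted p over all settings ran from 0.000686 to 0.383. E2F3, E2F4, E2F6 and TFDP1 have processed pseudogenes by name in GENCODE v44, copies that could take or lend reads. How alike these copies are in sequence was not measured.

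RBL2, the pocket protein p130 of quiescent cells, was at 1048, 939 and 1140 normalized counts in proliferating cells and at 766, 790 and 836 with DMSO. With palbociclib it was at 932, 680 and 891, and with ruxolitinib at 872, 903 and 839. The palbociclib group spread widely because library A120 was lower than every other library, and the ruxolitinib libraries were all above the DMSO libraries. RBL2 fell by 0.38 on the log2 scale with DMSO against proliferating cells (SE 0.10, limma adjusted p = 0.00288). Against DMSO, palbociclib differed by 0.05 (95% interval -0.16 to 0.27, adjusted p = 0.688) and ruxolitinib by 0.13 (95% interval -0.08 to 0.34, adjusted p = 0.602). Without library A120 the palbociclib difference was 0.19 and passed the test (adjusted p = 0.0495), and without both A120 and A126 the adjusted p was 0.0120. Exons of AKTIP lie opposite 7.51% of the exon bases of RBL2, and those of a GENCODE entry without a gene symbol lie opposite 8.89%.

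TFDP1, the DP subunit shared by most E2F factors, was at 3674, 3683 and 3634 normalized counts in proliferating cells and at 2022, 2123 and 2121 with DMSO. It was at 2347, 2517 and 2463 with palbociclib and at 2246, 2085 and 2109 with ruxolitinib. With all libraries in the fit, TFDP1 was the only member called higher with palbociclib than with DMSO, and each of its palbociclib libraries was above each DMSO and ruxolitinib library. TFDP1 fell by 0.81 on the log2 scale with DMSO against proliferating cells (SE 0.05, limma adjusted p = 5.49e-10). The rise with palbociclib against DMSO was 0.23 (SE 0.05, adjusted p = 0.00141), and against ruxolitinib 0.19 (SE 0.05, adjusted p = 0.00660). Both rises depended on the scale: after bringing all libraries to the same total they were -0.001 and -0.02, and with quantile normalization they were 0.09 and 0.04 and were not called. The related partner TFDP2 was also higher with palbociclib than with DMSO, by 0.23 (SE 0.07, adjusted p = 0.00928), a call that was lost at the same total (0.01) and without library A118 (0.18, adjusted p = 0.0541).

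**Figure D2:**
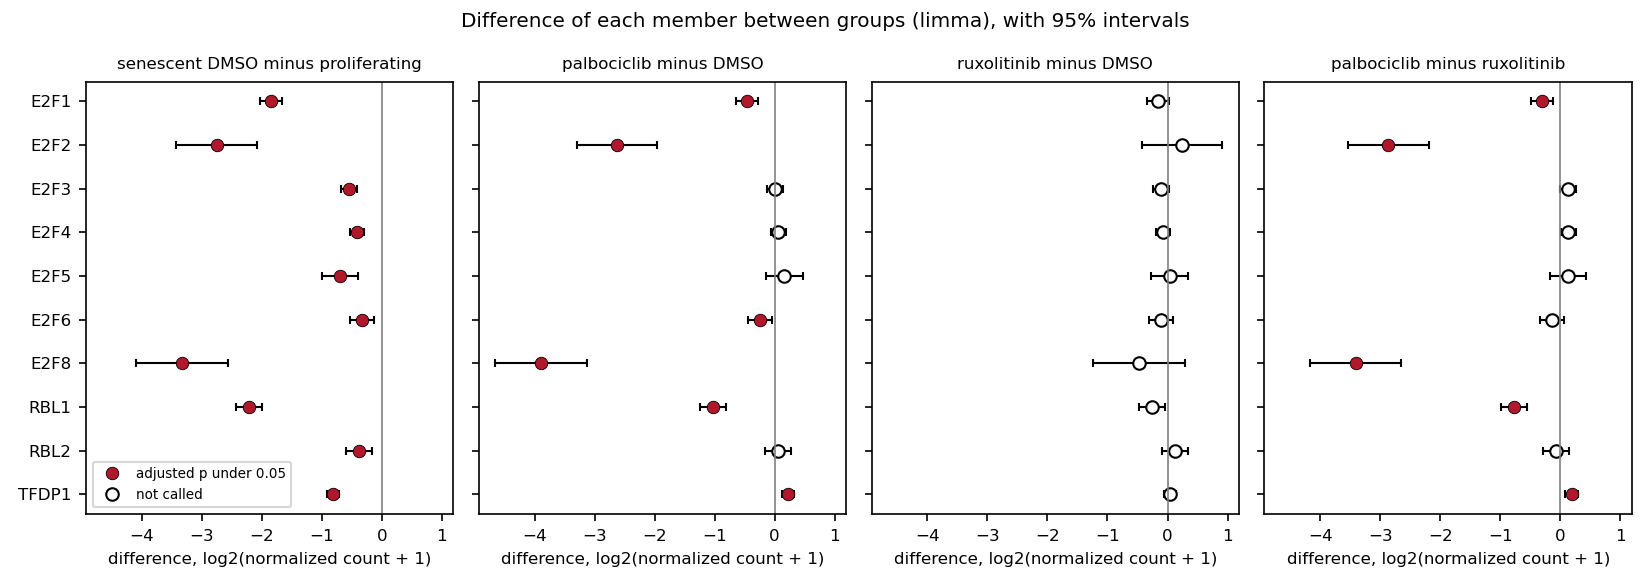
Differences between group means on the log2(normalized count + 1) scale from limma, with 95% intervals, for each member in 4 comparisons. Filled points passed an adjusted p of 0.05. All 10 points lie left of 0 for senescent DMSO against proliferating cells, and none is filled for ruxolitinib against DMSO.

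Between senescent DMSO and proliferating cells, all 10 members fell, where 39.3% of all tested genes were called lower and 72.4% were called in either direction. Their groups did not overlap in 10 of 10 cases, against 75.1% of all tested genes. A fall of at least 2-fold was reached by 4 members, E2F1, E2F2, E2F8 and RBL1, while 20% of all tested genes were called with at least 2-fold in either direction. The members' median difference was -0.75 on the log2 scale, beside -0.05 over all tested genes. Scaling every library to the same total moved the median gene by 0.23 in this comparison and changed the calls over all genes from 33.0% higher and 39.3% lower to 47.0% higher and 26.4% lower. With upper quartile scaling they were 42.6% higher and 30.1% lower. At the same total E2F6 (-0.11, adjusted p = 0.318) and RBL2 (-0.15, adjusted p = 0.163) were then not called, and with upper quartile scaling E2F6 was not (-0.18, adjusted p = 0.103).

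With palbociclib against DMSO, 5 members fell (E2F1, E2F2, E2F6, E2F8 and RBL1), TFDP1 rose, and E2F3, E2F4, E2F5 and RBL2 did not pass the test. Over all tested genes 22.3% were called lower, 26% higher and 48.3% in either direction, so 6 of 10 members called is near the background. The groups did not overlap for 7 of 10 members, against 54.8% of all tested genes. The sizes lay farther from the background. A difference of at least 2-fold was called for 3 of 10 members, E2F2, E2F8 and RBL1, against 6% of all tested genes. At the same total the median gene moved by -0.23 and the calls over all genes became 8.35% higher and 46.0% lower. There 7 members were called lower and 0 higher, with E2F3 (-0.22) and E2F4 (-0.16) joining the 5. With quantile normalization E2F5 was called higher (0.53, adjusted p = 0.00929).

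With ruxolitinib against DMSO, 0 of 10 members passed the limma test, beside 4.52% of all tested genes in either direction. In the limma fit over all 4 groups, which share an estimate of the spread, RBL1 alone had an unadjusted p under 0.05. Both edgeR and DESeq2 likewise called 0, each with 1 member at an unadjusted p under 0.05. That number depended on the setting. It was 3 in a fit of only the 2 groups, and 2 at the same total and without both A120 and A126. It was 0 with quantile normalization, and 0 members were called in each of these settings. The groups did not overlap for 3 members, RBL1, RBL2 and E2F1, against 31.9% of all tested genes. For E2F1 the 95% interval of the difference ran from -0.34 to 0.02, for E2F4 from -0.19 to 0.05 and for TFDP1 from -0.06 to 0.14, so changes of 2-fold lie outside these intervals. For the low-count E2F8 the interval was wider, from -1.24 to 0.29.

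The inhibitors were given at the same 2 µM and on the same days, and were compared directly for the 10 members. They act on different kinases. Palbociclib gave lower levels than ruxolitinib for E2F1 (-0.31, SE 0.09, limma adjusted p = 0.00979), E2F2 (-2.87, SE 0.32, adjusted p = 4.19e-06), E2F8 (-3.41, SE 0.36, adjusted p = 2.58e-06) and RBL1 (-0.78, SE 0.10, adjusted p = 2.32e-05), and a higher level for TFDP1. The call for E2F1 was lost with quantile normalization (-0.21, adjusted p = 0.0669). These were 4 lower and 1 higher of 10, where 17.6% of all tested genes were called lower, 22.8% higher and 40.4% in either direction (7.52% higher and 40.3% lower at the same total). E2F2 and E2F8 differed by at least 2-fold, against 4.71% of all tested genes. In reads the ruxolitinib to palbociclib ratio was 10.5 for E2F2 (95% interval 4.59 to 29.4) and 18.7 for E2F8 (95% interval 6.13 to 93.0), from counting error only. The other 5 members were not called, and their 95% intervals were -0.01 to 0.26 for E2F3, 0.01 to 0.26 for E2F4, -0.17 to 0.43 for E2F5, -0.34 to 0.06 for E2F6 and -0.29 to 0.14 for RBL2. At the same total 6 members were called lower and 0 higher, with E2F6 (-0.34, adjusted p = 0.00817) and RBL2 (-0.28, adjusted p = 0.0276) joining the 4. With quantile normalization E2F5 was called higher with palbociclib (0.41, adjusted p = 0.0437).

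Against proliferating cells, the palbociclib and ruxolitinib groups each had all 10 members called lower. These comparisons share the proliferating libraries with the DMSO comparison, and both inhibitors' comparisons with DMSO share the DMSO libraries. With palbociclib the background was 38.6% lower and 73.8% in either direction, and with ruxolitinib 39.5% and 72.2%. With ruxolitinib the calls over all genes were 32.6% higher and 39.5% lower, but 44.8% and 27.8% at the same total and 42.9% and 29.4% with upper quartile scaling. At least 2-fold was reached by E2F1, E2F2, E2F8 and RBL1 in each, where 21.9% of all tested genes did so with palbociclib and 20.5% with ruxolitinib. E2F1 fell by 2.31 on the log2 scale with palbociclib and fell by 2.00 with ruxolitinib, while RBL1 fell by 3.25 and fell by 2.47. RBL2 fell by 0.33 with palbociclib (limma adjusted p = 0.00766) and by 0.25 with ruxolitinib (adjusted p = 0.0323). The ruxolitinib call for RBL2 was lost in edgeR (adjusted p = 0.0775) and DESeq2 (adjusted p = 0.0834), on leaving out A122, A124, A125 or A127, without the variance trend (adjusted p = 0.0653), and under each other scaling (same total -0.05, upper quartile -0.08 and quantile -0.07). The palbociclib call for RBL2 was lost with upper quartile scaling (-0.20, adjusted p = 0.0717) and quantile normalization (-0.19, adjusted p = 0.0795).

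Levels were set beside each other per kilobase of the canonical GENCODE transcript, since longer transcripts collect more reads. Gene counts can also take reads from exons outside that transcript, and levels per length of all exons were not computed. All exons cover 8110 bases against 4854 canonical for RBL2, 5999 against 1964 for E2F5 and 5956 against 5686 for RBL1. The order of members can therefore depend on the length used. TFDP1 was the highest member in every group, from 791 ± 21.8 normalized counts per kilobase (SD, n = 3) with DMSO to 1388 ± 9.96 in proliferating cells. E2F4 came next in every group, at 538 ± 10.8 in proliferating cells and 404 ± 17.6 with DMSO. In proliferating cells E2F1 followed at 370 ± 33.8, then E2F3 at 248 ± 16.9, RBL2 at 215 ± 20.7 and RBL1 at 180 ± 25.5. The neighbours E2F3 and RBL2, and RBL2 and RBL1, lay within 2 SD of each other. At the low end were E2F6 at 100.3 ± 7.43, E2F8 at 76.1 ± 10.7, E2F5 at 45.1 ± 3.96 and E2F2 at 23.2 ± 0.54. With DMSO, E2F3 at 169 ± 9.23 and RBL2 at 164 ± 7.33 stood above E2F1 at 103 ± 5.34, and did not differ from each other beyond their spread. RBL1 then stood at 38.4 ± 3.06 and below E2F6 at 79.5 ± 6.12. With palbociclib the order ended with RBL1 at 18.7 ± 0.36, E2F2 at 0.40 ± 0.21 and E2F8 at 0.30 ± 0.30, the last pair indistinguishable. With ruxolitinib E2F2 was lowest at 4.07 ± 1.27, next to E2F8 at 5.15 ± 0.18. On canonical length E2F4 therefore stood above E2F1 in all 4 groups. All annotated exons of E2F4 cover 3596 bases against 2110 in its canonical transcript, while E2F1 has 2690 by either length. The order of E2F4 and E2F1 can therefore depend on the length used.

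**Figure D3:**
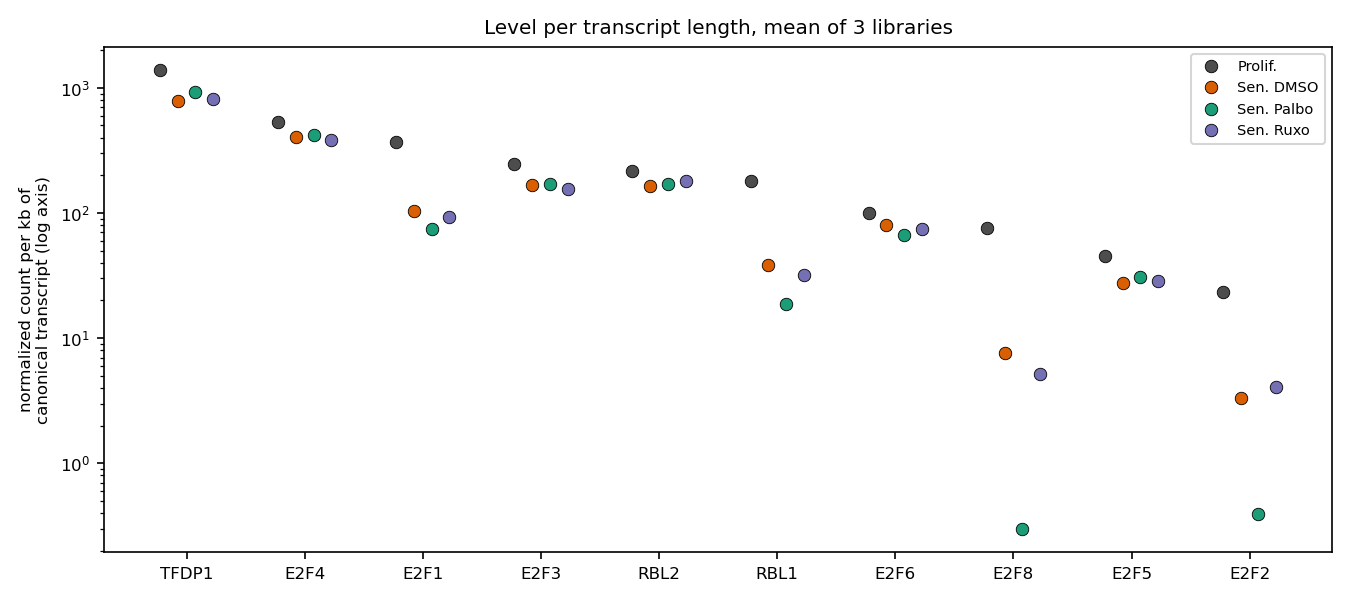
Mean normalized count per kilobase of canonical transcript (log axis) for each member in the 4 groups, ordered by the level in proliferating cells. TFDP1 and E2F4 are highest in all groups, and the palbociclib points of E2F8 and E2F2 lie below 1.

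Ratios of genes within a library do not depend on how libraries are scaled. The ratio of RBL2 to RBL1, of normalized counts and not per length, was 0.98, 1.09 and 1.00 in proliferating libraries. It was 3.49, 3.95 and 3.56 with DMSO, 8.59, 6.47 and 8.50 with palbociclib, and 4.77, 4.92 and 4.65 with ruxolitinib. No group overlapped another, and the order rose from proliferating to DMSO, ruxolitinib and palbociclib cells. The group means were 1.02 ± 0.06, 3.66 ± 0.25, 7.85 ± 1.20 and 4.78 ± 0.13 (SD, n = 3) for proliferating, DMSO, palbociclib and ruxolitinib cells. The exact permutation test, two-sided, gave p = 0.1 in each of the 6 comparisons, the smallest that 3 libraries against 3 can give, so no adjustment over them can reach 0.05.

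The ratio of E2F4 to E2F1, a repressor to an activator, was 1.21, 1.06 and 1.17 in proliferating libraries and 3.05, 3.08 and 3.11 with DMSO. With palbociclib it was 4.72, 4.38 and 4.26, and with ruxolitinib 3.10, 3.33 and 3.40. The palbociclib libraries were above all others, while ruxolitinib overlapped DMSO. Its exact permutation p, two-sided, was 0.2 for ruxolitinib against DMSO (n = 3 each) and 0.1 for the other 5 comparisons.

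**Figure D4:**
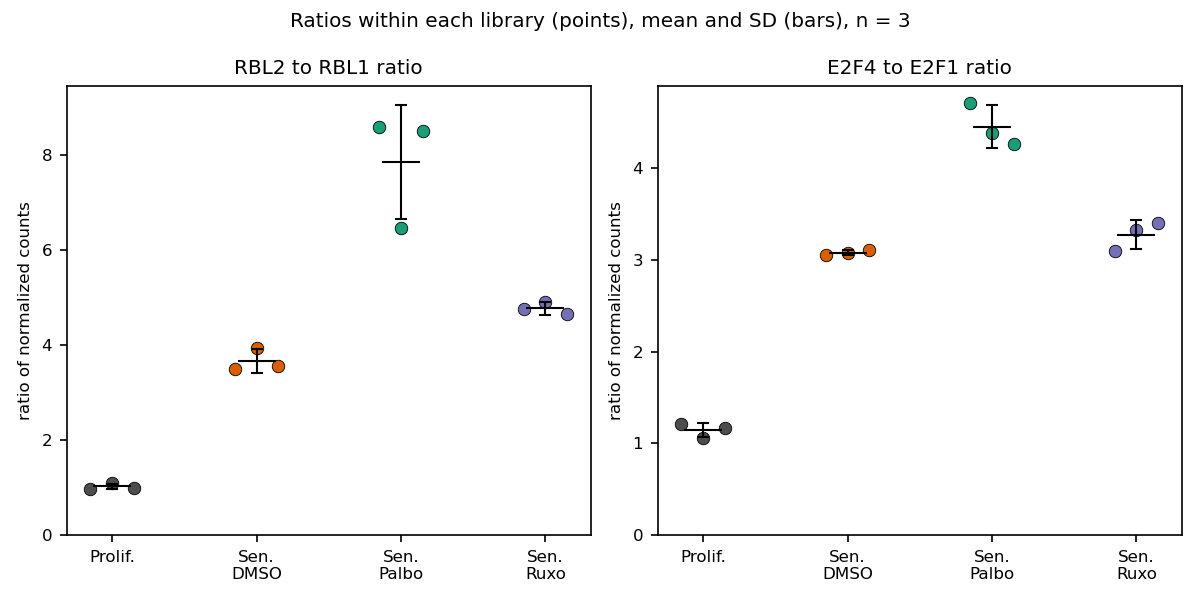
Ratio of RBL2 to RBL1 and of E2F4 to E2F1 in each library (points), with the mean and SD (bars, n = 3), on linear axes from 0. The RBL2 to RBL1 ratio lies near 1 in proliferating cells and between 6.47 and 8.59 with palbociclib.

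Partners of the members were followed through a list of 10 genes of the RB and DREAM machinery, of which 9 were tested and LIN9 was not analysed here. With DMSO against proliferating cells 7 fell and 2 were not called, where 39.3% of all tested genes were called lower, with a list median of -0.76 on the log2 scale. At the same total 7 fell and 2 rose, where 26.4% of all tested genes were called lower and 47.0% higher. RB1 itself, the third pocket protein, fell by 0.76 (SE 0.08, limma adjusted p = 7.00e-07) and differed by -0.08 with palbociclib against DMSO (95% interval -0.26 to 0.10). That difference was -0.31 at the same total and was called (adjusted p = 0.00393). MYBL2, which binds the MuvB core when DREAM comes apart, went from 2529 ± 42.6 normalized counts in proliferating cells to 183 ± 10.4 with DMSO and 27.3 ± 8.50 with palbociclib (SD, n = 3). FOXM1, the mitotic activator that follows it, went from 4430 ± 301 to 556 ± 21.9 and 107 ± 19.9. Both changes passed the test for each gene. With palbociclib against DMSO 4 of 9 fell and TFDP2 rose, at a list median of -0.18 beside 0.02 over all tested genes, of which 22.3% were called lower and 26% higher. At the same total 7 fell and 0 rose, where 46.0% of all tested genes were called lower. With ruxolitinib 1 fell, FOXM1, by 0.39 (SE 0.10, adjusted p = 0.0378), where 3.42% of all tested genes were called lower. That call was lost on leaving out A116, A117, A118, A122, A123, A124 or A125, with no filter on low values and without the variance trend.

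The kinases and cyclins that inactivate the pocket proteins, with their inhibitors, made a list of 16 genes, 15 of them tested. With DMSO against proliferating cells 5 rose and 7 fell, where 33% of all tested genes were called higher and 39.3% lower, so these counts are near the background. CCND2, a D-type cyclin that pairs with CDK4 and CDK6, rose by 5.11 on the log2 scale (SE 0.15, limma adjusted p = 1.86e-13), and CDKN1A (p21), an inhibitor of CDK2, rose by 3.11 (SE 0.06, adjusted p = 4.55e-15). CCNA2 (cyclin A) fell by 3.23 (SE 0.09) and CDKN2C (p18), itself an inhibitor of CDK4 and CDK6, fell by 3.36 (SE 0.16). With palbociclib against DMSO 2 rose and 6 fell, where 26% of all tested genes were called higher and 22.3% lower. At the same total 1 rose and 10 fell, where 8.35% were called higher and 46.0% lower. CDK6, a target of the drug, rose by 0.69 (SE 0.09, adjusted p = 1.81e-05), and CCND1 rose by 0.23 (SE 0.07, adjusted p = 0.0141), a rise that ended at the same total and without library A121 and was -0.22, a fall that passed the test, with quantile normalization. CCNE2 (cyclin E2) fell by 2.10 (SE 0.15, adjusted p = 2.59e-08), and CCNE1 differed by 0.14 (SE 0.12, adjusted p = 0.341) and was not called. CDKN1A fell by 0.98 (SE 0.06, adjusted p = 3.37e-09), from 29150 ± 662 to 14779 ± 998 normalized counts (SD, n = 3). With ruxolitinib 1 of 15 rose and 1 fell, where 1.1% of all tested genes were called higher and 3.42% lower. CDKN2B (p15) rose by 0.37 (SE 0.10, adjusted p = 0.0454) and CCNA2 fell by 0.39 (SE 0.09, adjusted p = 0.0156). Both calls were lost on leaving out A116, A117, A122 or A124, and that of CDKN2B also without A118, A121, A123 or A125, with no filter on low values and without the variance trend.

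The 30 G1/S targets of E2F, the genes for origin licensing, nucleotide supply and replication, all fell with DMSO against proliferating cells, at a median of -2.41 on the log2 scale, where 39.3% of all tested genes were called lower. With palbociclib against DMSO 26 of 30 fell, at a median of -0.79, where 22.3% of all tested genes were called lower. RRM2, the small subunit of ribonucleotide reductase, fell by 3.17 (SE 0.06, limma adjusted p = 3.99e-15), from 1586 ± 56.8 to 175 ± 6.72 normalized counts (SD, n = 3), and TYMS, the thymidylate synthase, fell by 2.56 (SE 0.08, adjusted p = 4.01e-12). MCM6, UNG, SLBP and CHAF1A were the 4 not called, with differences from -0.20 to 0.12. With ruxolitinib 5 of 30 fell (MCM5, MCM7, RRM2, TK1 and UHRF1), at a median of -0.17, where 3.42% of all tested genes were called lower. RRM2 was lower there by 0.42 (SE 0.06, adjusted p = 0.000176). That count was 1 without A118, A122 or A123, 2 without A116 or A117, 3 without A124, and 8 without both A120 and A126.

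The 21 G2/M genes bound by DREAM and later by MuvB with FOXM1 fell more steeply. All 21 fell with DMSO against proliferating cells, at a median of -3.24 on the log2 scale, and 20 of 21 fell again with palbociclib, at a median of -2.12. KIF20A, a mitotic kinesin, went from 373 ± 19.0 normalized counts with DMSO to 27.2 ± 4.52 with palbociclib (SD, n = 3), and fell by 3.74 (SE 0.12, limma adjusted p = 2.21e-12). AURKA was the gene not called, at -0.16 (SE 0.07, adjusted p = 0.0676). With ruxolitinib 13 of 21 fell, at a median of -0.38, where CDK1 fell by 0.69 (SE 0.09, adjusted p = 0.000169). The shares of all tested genes called lower in these comparisons were 39.3%, 22.3% and 3.42%. Without A118, A122 or A123 the ruxolitinib count was 3, without A117 it was 4, and without A116 or A124 it was 5. Over all tested genes the median was -0.05 for DMSO against proliferating cells, 0.02 for palbociclib against DMSO and -0.003 for ruxolitinib against DMSO.

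E2F6 acts through the Polycomb complex PRC1.6, and 11 of 12 genes of that complex were tested, while RING1 was listed at or next to 0. With DMSO against proliferating cells 7 fell and 2 rose, at a median of -0.49 on the log2 scale. Over all tested genes 72.4% were called in either direction, so 9 of 11 is near the background, and 39.3% were called lower. Without A117, A118 or A127 only YAF2 rose. The chromatin readers WDR5 and CBX3 fell by 1.16 (SE 0.06) and 1.11 (SE 0.05), and YAF2 rose by 0.37 (SE 0.10, limma adjusted p = 0.00388). With palbociclib against DMSO MGA fell by 0.57 (SE 0.12, adjusted p = 0.00114), RYBP fell by 0.40 (SE 0.07, adjusted p = 0.000251) and MAX rose by 0.19 (SE 0.06, adjusted p = 0.0240), and the other 8 were not called. Over all tested genes 22.3% were called lower, 26% higher and 48.3% in either direction. The call of MAX was lost without A116, A118, A120 or A121, in DESeq2, in a fit of only the 2 groups and with upper quartile scaling. It was also lost at the same total (-0.04), where 6 of the list fell and 0 rose. There 46.0% of all tested genes were called lower and 8.35% higher, so that count is near the background. With ruxolitinib the differences from DMSO ran from -0.23 for RYBP to 0.12 for L3MBTL2.

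**Figure D5:**
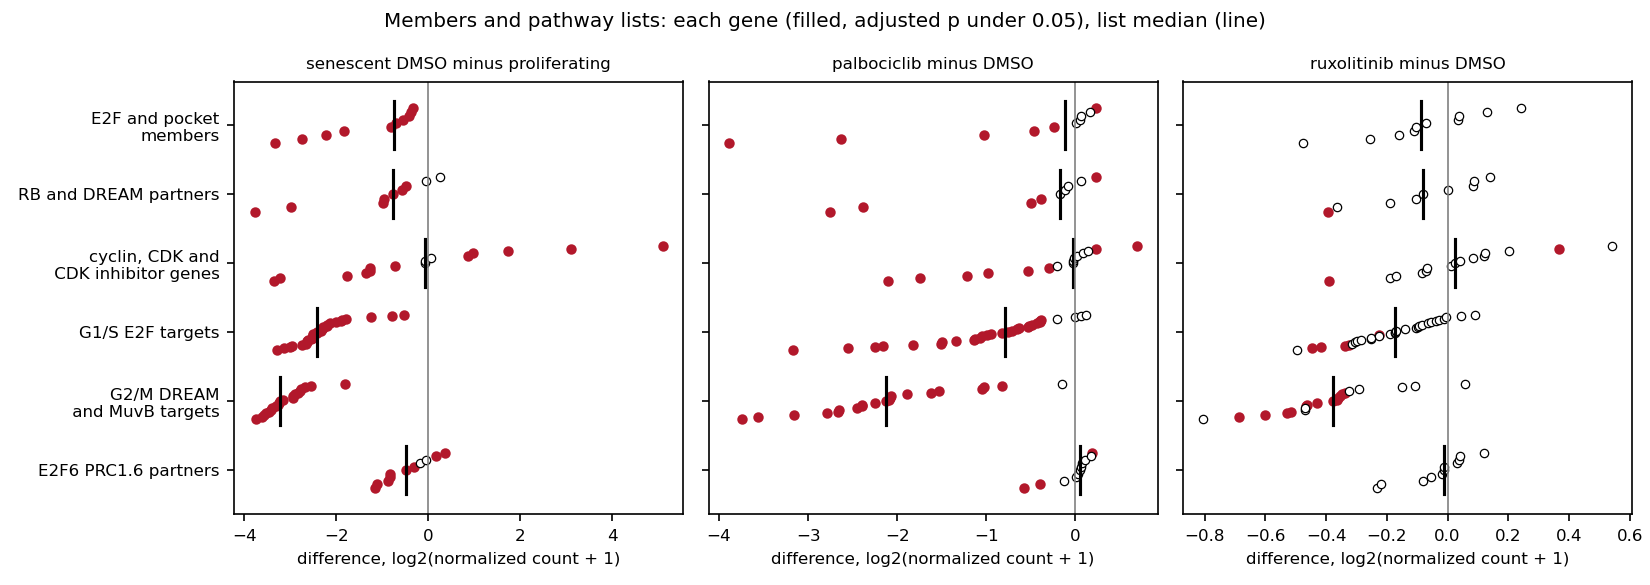
Differences on the log2(normalized count + 1) scale for the 10 members and each tested gene of the 5 lists, in 3 comparisons with separate horizontal scales. Filled points passed an adjusted p of 0.05, and the vertical line in each row is its median. For palbociclib against DMSO the row medians run from -2.12 for the G2/M genes to 0.05 for the PRC1.6 partners.

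The genes most like each member over the 12 libraries were taken from 9243 genes with a mean of at least 100, by Pearson's r of log2(normalized count + 1). These values describe likeness over libraries that share 4 group means and are given without a test. E2F1 was closest to the histone gene H2AX and the replication helicase gene MCM2 (r of 0.997 each). RBL1 was closest to CKAP2, KIF11 and FBXO5 (r of 0.997 each), E2F2 to TYMS, PCNA and CLSPN (0.987, 0.986 and 0.985) and E2F8 to PELI2, HMMR and KIF4A (0.995, 0.994 and 0.992). TFDP1 was closest to FH, CPSF1 and IDH2 (0.995, 0.993 and 0.993), of which FH and IDH2 code for mitochondrial enzymes. E2F3 was closest to PALS2 (0.992), E2F4 to TMA16 (0.987), E2F5 to TOMM22 (0.969), E2F6 to CYREN (0.963) and RBL2 to BMPR1A (0.961). PTN was the third for E2F1 (0.997).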

How the data were processed

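RNA-seq was run on 12 poly(A) libraries of IMR90 cells. What the authors deposited is 1 table of gene counts after normalization (unit: signal). Per the submitters' processing notes, Trimmomatic 0.38.1, HISAT2 2.2.1, featureCounts 2.0.3, FastQC 0.74, MultiQC and a DESeq2 tool numbered 2.11.40.8 were used with hg38. The annotation is not given in the sources used here. Dividing each column by the worth of 1 read gave whole reads for all values above 0 (160380 of 160380, 100%, tolerance 0.01). The table ended at Entrez number 140467, and genes beyond it were not analysed here.

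The values, with a pseudocount of 1, were log2 transformed and fitted in limma 3.58.1 (R 4.3.3) with 4 group means over 12 libraries and a variance trend. Benjamini-Hochberg adjustment ran over 11242 genes averaging at least 10. This scale understates changes of low genes. Calls needed an adjusted p under 0.05. Intervals are 95% intervals. Log ratios were compared with exact permutation tests. The edgeR 4.0.16 quasi-likelihood test and DESeq2 1.42.0 were run on recovered reads. Of the 10 members, all 3 tools called 10 for DMSO against proliferating, 6 for palbociclib against DMSO and 0 for ruxolitinib against DMSO. The limma step was tested on simulated data. Read ratios carry exact intervals for counting error only.

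All members were named. For each list, up to 2 called genes with the largest rise and 2 with the largest fall were named, besides RB1, TFDP2, CCNE1, CCNE2 and CDKN1A and, by likeness, 3 genes per member. AURKA, RYBP, MCM6, UNG, SLBP, CHAF1A, MCM5, MCM7, TK1, UHRF1, L3MBTL2, RING1 and LIN9 were named to spell out small counts or gaps. The members and lists were chosen with earlier results of these data known. Gene positions, exon overlaps and lengths came from GENCODE v44 on GRCh38, and promoters from RefSeq on GRCh38.p14. Protein sequences were not used here.

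Alternatives were pseudocounts of 0.1 and 5, no filter, a mean of at least 50, the same total, upper quartile and quantile scaling, no trend, a fit of only the 2 groups, leaving out each library, an adjusted p under 0.01, and at least 2-fold. Leaving out both A120 and A126 was added after seeing the data.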

Additional observations from a re-analysis of the deposited data

How the results depend on the processing

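Values here are log2 differences unless they are counts. Leaving out each library in turn gave 10 to 10 members called for DMSO against proliferating cells, 5 to 7 for palbociclib against DMSO, 0 to 0 for ruxolitinib against DMSO, 5 to 5 for palbociclib against ruxolitinib, 10 to 10 for palbociclib against proliferating cells and 9 to 10 for ruxolitinib against proliferating cells. Requiring at least 2-fold left 4, 3, 2, 4 and 4 members in these comparisons, without the ruxolitinib against DMSO one. The RBL2 to RBL1 ratio of palbociclib against proliferating cells was 3.11 without both A120 and A126, and 2.93 with them. No paired analysis was possible because the columns of the table carry no replicate number. For palbociclib against DMSO at the same total, E2F3 was at -0.216, E2F4 at -0.165, E2F5 at -0.0591, RBL2 at -0.174, TFDP1 at -0.00107, CCND1 at -0.000932 and MAX at -0.0368. E2F3 was also at -0.0199 with upper quartile scaling, -0.0130 with quantile normalization, -0.0159 in edgeR and -0.0143 in DESeq2, and CCND1 at -0.220 with quantile normalization. For palbociclib against ruxolitinib at the same total, E2F3 was at -0.0805, E2F4 at -0.0675, E2F5 at -0.0687, TFDP1 at -0.0152, TFDP2 at -0.108, CCND1 at -0.0161 and RNF2 at -0.00305. CCND1 was at -0.187 there with quantile normalization, and RBL2 at 0.0649 without both A120 and A126. RB1 for ruxolitinib against DMSO was at -0.0227 at the same total. Leaving out 1 library turned the sign of E2F3 (-0.0356 to 0.0347, negative without A118 or A119) and RBL2 (-0.0338 to 0.193, negative without A119 or A121) for palbociclib against DMSO. It did so for E2F5 (-0.0235 to 0.141, negative without A123 or A124) and RB1 (-0.0241 to 0.0370, negative without A116, A123 or A124) for ruxolitinib against DMSO, and for RBL2 (-0.162 to 0.0649, positive without A120) for palbociclib against ruxolitinib. Apart from the scalings, the cause was not tested. E2F2 was not tested at a mean of at least 50, nor in the 2-group fit of palbociclib against DMSO, where it averaged below 10. With 3 and 6 reads in the palbociclib group, depth limits the folds of E2F8 and E2F2 to their counting intervals.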
